A study of Mus musculus with 12 samples.

Results

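The genes described here were 10 markers of tissue that can be carried over when the prefrontal cortex is excised: Ttr, a marker of the choroid plexus, and 9 genes expressed by fibroblasts of the meninges (Igf2, Igfbp2, Dcn, Ptgds, Slc6a13, Aldh1a2, Bgn, Islr and Ogn). They were taken by name and not by a cut on their values, though earlier results of these data were known when they were chosen. Each stood on 1 locus in every table, among 41319 loci at 2 h, 42527 in the 24 h table and 41667 in the 7 d table. The samples were 12 RNA-seq libraries of prefrontal cortex from male 10-week-old C57BL/6 mice (the strain as labelled; the methods name the J substrain), in 6 groups of 2 libraries, each library made from 5 pooled mice. The groups were mice given saline (the chronic control) or cocaine at 20 mg/kg by daily injection over 14 days, with tissue taken 2 h, 24 h or 7 d later. The labels list no transgene or deletion. The deposited tables give 1 value per group, pooled over its 2 libraries, so the replicates cannot be compared, no difference below was tested, and the read depth behind a value is unknown from the tables.

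Transthyretin, the product of Ttr, carries thyroid hormone and, with retinol-binding protein, retinol, and in the brain it is secreted into the cerebrospinal fluid mainly by the choroid plexus epithelium. The meninges wrap the cortex, and their fibroblasts lay down collagen and small proteoglycans, make retinoic acid and take up solutes from the cerebrospinal fluid. The choroid plexus lies inside the ventricles and the meninges on the surface, so RNA from the former and from the latter can enter a cortical dissection separately. Some of the 9 genes are not restricted to the meninges: Igf2, Igfbp2 and Ptgds are also expressed by the choroid plexus, Igfbp2 by astrocytes, and Ptgds by oligodendrocytes.

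The stretch around the transcription start is shown for 3 of the members: Ptgds, the most abundant, and Bgn and Ogn, which had the largest log2 ratios of the 9 meningeal genes at 2 h. Each window runs from 250 bases before the start to 50 after it and was copied from RefSeq on GRCm38.p6. Capitals mark the AP-1 site TGACTCA and the TATA box TATAAA, which were searched on both strands.
Ptgds, chr2:25469700-25469999, minus strand: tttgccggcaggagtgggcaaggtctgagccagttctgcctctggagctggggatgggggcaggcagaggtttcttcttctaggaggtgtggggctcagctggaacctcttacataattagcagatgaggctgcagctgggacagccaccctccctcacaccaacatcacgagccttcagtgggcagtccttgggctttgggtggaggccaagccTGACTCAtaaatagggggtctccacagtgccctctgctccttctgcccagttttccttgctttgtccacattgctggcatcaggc
Ogn, chr13:49607765-49608064, plus strand: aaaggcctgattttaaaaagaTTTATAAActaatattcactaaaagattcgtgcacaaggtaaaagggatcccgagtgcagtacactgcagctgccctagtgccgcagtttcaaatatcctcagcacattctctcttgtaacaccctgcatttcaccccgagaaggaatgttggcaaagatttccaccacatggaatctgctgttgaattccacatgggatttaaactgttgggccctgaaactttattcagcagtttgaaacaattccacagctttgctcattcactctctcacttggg
Bgn, chrX:73483351-73483650, plus strand: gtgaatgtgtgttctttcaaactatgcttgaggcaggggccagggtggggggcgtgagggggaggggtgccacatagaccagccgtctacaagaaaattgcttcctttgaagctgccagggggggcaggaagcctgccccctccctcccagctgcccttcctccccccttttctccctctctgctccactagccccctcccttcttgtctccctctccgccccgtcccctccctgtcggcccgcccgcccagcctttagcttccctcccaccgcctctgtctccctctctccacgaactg
The Ptgds window holds TGACTCA with its first base 35 bases before the start, the Ogn window holds 2 overlapping matches to TATAAA, on opposite strands and far upstream of the start, and the Bgn window holds neither. The member windows searched numbered 14 and covered 8 of the members. Ttr was left out of the search and Dcn had no window, so the counts cover neither. Of the 14, 2 held TGACTCA (the other was at a second start of Igfbp2) and 1 held TATAAA. Over all 32851 windows of the same length, 5.2% held TGACTCA and 13.6% held TATAAA. A match is a description of the letters only.

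Levels are given as FPKM, the fragments of a gene divided by its length in kilobases and by the mapped reads of the library, a scale that allows genes to be set side by side. Differences are given as the log2 ratio of cocaine over saline with 0.1 FPKM added to both values, which understates the difference of low genes, and a ratio of at least 1.5-fold on this scale was counted; folds are the plain ratio of the FPKM values. The background was every locus that names a gene and has a mean FPKM of at least 1 in the table, which left 13466 loci at 2 h, 13929 in the 24 h table and 13562 in the 7 d table, and all 10 members passed this limit in all 3 tables. The 3 tables were normalised separately, so a range of levels over time points, as given below for the saline groups and for the 6 groups, also holds any difference between the tables. The cortical markers Slc17a7, the vesicular glutamate transporter, Camk2a and Snap25 were listed between 466 and 1581 FPKM in the 6 groups, and of the list of 9 olfactory bulb genes Nmb (15.0 to 17.1 FPKM) and Doc2g (5.83 to 6.71) were above the limit while the other 7, among them Eomes and Tbx21 at 0.158 FPKM or less, were below it.

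Ttr was lower in cocaine than in saline at the earlier time points, 2 h and 24 h, and far higher at 7 d. It stood at 1.90 FPKM in saline against 0.461 in cocaine after 2 h, 1.80 against 1.10 after 24 h and 0.284 against 6.54 after 7 d. The high value was the cocaine group at 7 d, and the lowest was the saline group of the same time. Ttr was thus 4.11-fold lower in cocaine at 2 h (log2 -1.83), 1.64-fold lower at 24 h (log2 -0.66) and 23.1-fold higher at 7 d (log2 4.11). It was the only 1 of the 10 members past 1.5-fold, at each of the 3 times, where 4.08% of all loci were past 1.5-fold at 2 h, 3.32% in the 24 h table and 3.62% in the 7 d table. In the direction of Ttr alone these shares were 1.68% (lower, 2 h), 1.54% (lower, 24 h) and 1.53% (higher, 7 d). Of the background loci, 64 had a lower ratio than Ttr at 2 h, 173 had a lower ratio at 24 h and 62 had a higher ratio at 7 d. At 2 h Ttr passed the limit of 1 FPKM through its saline group alone, and at 7 d through its cocaine group alone. Loci under that limit, and above 0 in a group, were past 1.5-fold more often, at 20.8% (2 h), 17.9% (24 h) and 18.5% (7 d). The levels of Ttr are low, so the size of its ratio depends on the pseudocount. With 1 FPKM added, the log2 ratios of Ttr were -0.99, -0.42 and 2.56, and the 24 h ratio no longer reached 1.5-fold.

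The saline groups alone spanned a wide range for Ttr. Their highest level was 6.69 times the lowest, and the highest cocaine level was 14.2 times the lowest. On the log2 scale the saline range was 2.38, which is larger than the difference between cocaine and saline at 2 h and at 24 h and smaller than that at 7 d. The Ttr gene lies at chr18:20664209-20674326 on GRCm38.p6. The interval listed for its locus begins further upstream, at 20558074, and takes in Dsg2, a desmosomal cadherin gene that the tables list on its own row at 0.0766 to 0.133 FPKM.

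**Figure D1:**
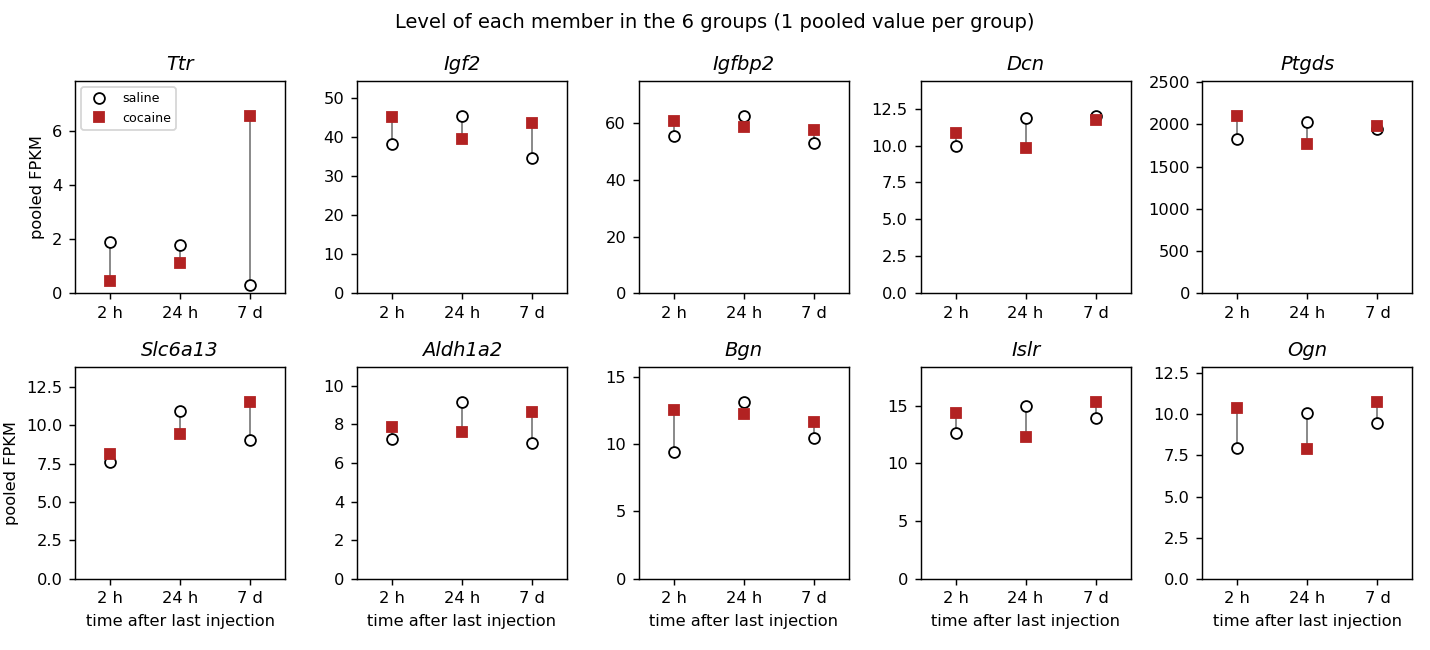
Pooled FPKM (vertical axes, from 0) of each of the 10 members at 2 h, 24 h and 7 d after the last injection in saline (open circles) and cocaine (red squares), with a grey line joining the groups of 1 time point; each point is 1 group and there are no error bars because the values are pooled. Ttr spans 0.284 to 6.54 FPKM, whereas the highest level of each of the other members is at most 1.51 times its lowest.

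The more abundant choroid plexus markers did not show the swing of Ttr. Of the list of 22 such markers, 21 are genes other than Ttr; all 21 were found in the tables, and 17 of them were under 1 FPKM in both groups at every time point. Klotho (Kl) was listed at 0.406 FPKM in saline against 0.511 in cocaine after 2 h, and at 0.376 against 0.531 after 7 d. The folate receptor Folr1 was at 0.328 FPKM in saline against 0.343 in cocaine after 2 h, and at 0.668 against 0.290 after 7 d, which is the opposite direction to Ttr at both times. The potassium channel Kcnj13, the most abundant of the 6 defining markers, was at 1.54 FPKM in saline against 1.92 in cocaine after 2 h, and at 2.04 against 2.16 after 7 d. The water channel Aqp1 was at 0.168 FPKM in saline against 0.219 in cocaine after 2 h, and at 0.125 against 0.131 after 7 d. The chloride channel protein Clic6 did not exceed 0.0789 FPKM in any group, and Otx2, the transcription factor of the choroid plexus, was listed at 0 in 4 of the 6 groups and at 0.038 in cocaine at 7 d.

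Of all 21, low markers included, 10 were on the side of Ttr at 2 h, 10 were after 24 h and 12 were after 7 d. Among the 17 low markers, ratios past 1.5-fold were those of Calml4 at 2 h (higher), Aqp1 at 24 h (lower, from 0.171 to 0.0676 FPKM) and 5 genes at 7 d, of which Folr1, Sostdc1, Calml4 and Steap1 were lower and Wfdc2 was higher. These were 1, 1 and 5 of the 17, where 20.8%, 17.9% and 18.5% of all loci under a mean of 1 FPKM, and above 0 in a group, were past 1.5-fold at the respective times. Of these genes, those outside the 6 defining markers are named after their values were seen. Aqp1 at 24 h and Wfdc2 at 7 d, at 0.113 FPKM in saline against 0.360 in cocaine, were on the side of Ttr.

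Of the 4 choroid plexus markers other than Ttr with a mean of at least 1 FPKM (Kcnj13, Enpp2, Ace and 1500015O10Rik), 0 lay on the side of Ttr at 2 h, 1 (Ace) did so at 24 h, and 2 (Kcnj13 and Ace) did so at 7 d. None of the 4 was past 1.5-fold on that side at any time point. Their log2 ratios spanned 0.07 to 0.53 at 2 h, -0.09 to 0.07 after 24 h and -0.21 to 0.28 after 7 d. Enpp2, which is also expressed by oligodendrocytes, made up most of the summed level, and that sum over the 21 markers was 89.9 FPKM in saline against 95.6 in cocaine after 2 h, 88.1 against 90.2 after 24 h, and 89.7 against 87.5 after 7 d. The sum lay on the same side as Enpp2 alone at each time. Enpp2 was at 78.9 FPKM in saline against 82.7 in cocaine after 2 h, 75.6 against 77.7 after 24 h, and 77.0 against 74.7 after 7 d. The sum therefore says little of the less abundant markers. How far the other markers would move with the levels of Ttr seen here was not tested.

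**Figure D2:**
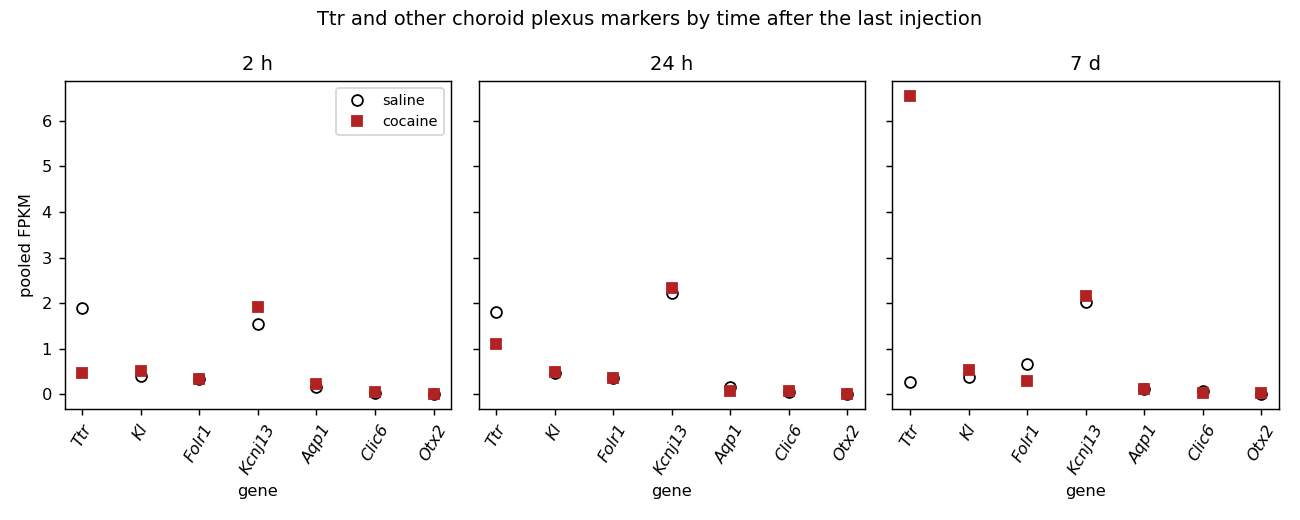
Pooled FPKM (vertical axis, from 0) of Ttr and of the 6 defining choroid plexus markers Kl, Folr1, Kcnj13, Aqp1, Clic6 and Otx2 in saline (open circles) and cocaine (red squares), 1 panel per time after the last injection. Ttr changes place between the panels, from 1.90 against 0.461 at 2 h to 0.284 against 6.54 at 7 d, while Kcnj13 stays between 1.54 and 2.34 and the other markers stay under 1.

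The 9 meningeal genes lay on the same side of 0 as each other at 2 h and at 24 h, by small amounts, and on the side opposite to Ttr at 2 h. At 2 h all 9 were higher in cocaine, with log2 ratios from 0.09 to 0.41 and a median of 0.19; 56.5% of all loci were higher, and their median was 0.02. At 24 h all 9 were lower in cocaine, from -0.35 to -0.09 with a median of -0.21; 46.9% of all loci were lower, and their median was 0.01. At 7 d 8 of the 9 were higher, from -0.03 to 0.35 with a median of 0.16. Of all loci 47.8% were higher, and their median was -0.01. These shares of all loci also apply to the counts at the same times and sides in the lists below. Set against Ttr, 0 of the 9 lay on its side of 0 at 2 h, 9 did so after 24 h and 8 after 7 d. None of the 9 was past 1.5-fold at any time point, and the spread between libraries that these ratios should be read against is not in the tables.

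The pattern of higher at 2 h, lower at 24 h and higher at 7 d was shown by 8 of the 9 genes and by 13.8% of the 13593 genes that reach a mean of 1 FPKM in every table. Against the quartiles of all loci, 5 of the 9 lay above the upper quartile at 2 h, all 9 lay below the lower quartile at 24 h, and 7 lay above the upper quartile at 7 d. Ttr was lower, lower and higher, a pattern seen in 7.61% of these genes. With a lower limit, the larger level at least 25% above the smaller, 2 of the 9 were higher at 2 h (Bgn and Ogn; 7.23% of all loci), 1 was lower at 24 h (Ogn; 3.96% of all loci) and 2 were higher at 7 d (Igf2 and Slc6a13; 5.29% of all loci).

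**Figure D3:**
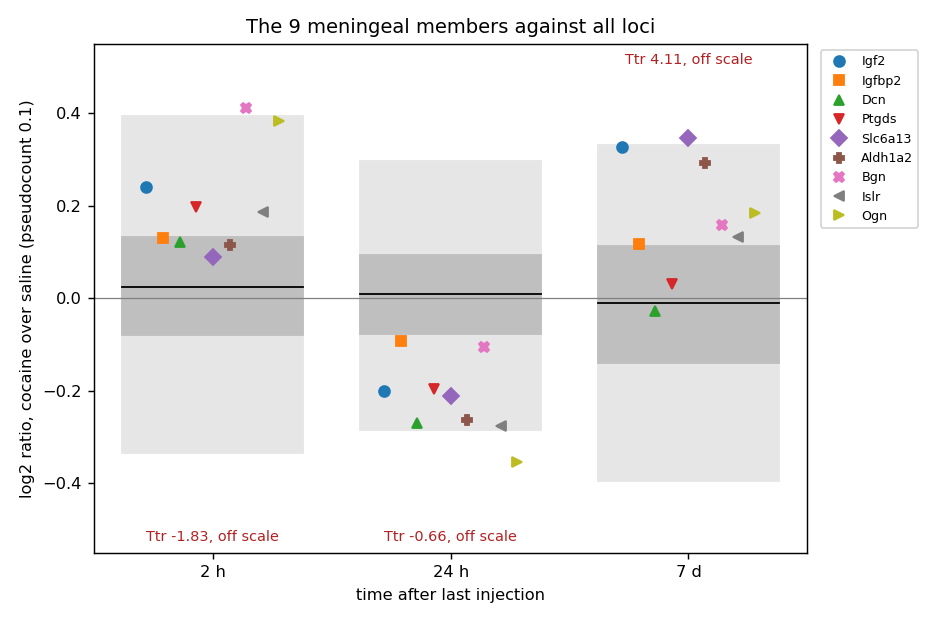
Log2 ratio of cocaine over saline (vertical axis, 0.1 FPKM added) of the 9 meningeal members at each time after the last injection (symbols), over the range of the background loci (dark grey, quartiles; light grey, 5th to 95th percentile; black line, median). All 9 members lie above 0 at 2 h and below the dark band at 24 h, and 8 lie above 0 at 7 d; Ttr is off the scale at -1.83, -0.66 and 4.11.

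Of the 4 matrix members (Dcn, Bgn, Islr and Ogn), Ogn had the widest gap between its log2 ratios at 2 h and at 24 h, 0.74. Osteoglycin, its product, is a small leucine-rich proteoglycan that binds collagen fibrils. Ogn was at 7.93 FPKM in saline against 10.4 in cocaine after 2 h, 10.1 against 7.86 after 24 h and 9.45 against 10.7 after 7 d. Cocaine was the higher group at 2 h and 7 d and the lower group at 24 h (log2 0.38, -0.35 and 0.18). Ogn (chr13:49608015-49624501) lies inside Cenpp, a kinetochore gene listed at 0.597 to 1.03 FPKM, and the library kit does not mark strand.

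Bgn encodes biglycan and Dcn decorin, proteoglycans of the same family. Bgn was at 9.39 FPKM in saline against 12.5 in cocaine after 2 h (log2 0.41, the largest of the 9 at that time), 13.1 against 12.2 after 24 h (log2 -0.10) and 10.4 against 11.7 after 7 d (log2 0.16). The 3 cocaine values of Bgn lay close together, and the saline values spread around them. Dcn was at 9.94 FPKM in saline against 10.8 in cocaine after 2 h (log2 0.12), 11.9 against 9.84 after 24 h (log2 -0.27) and 11.97 against 11.7 after 7 d (log2 -0.03). Dcn was the only member of the 9 that was not higher in cocaine at 7 d. Islr encodes a secreted leucine-rich protein with an immunoglobulin domain, also known as meflin, that marks fibroblasts and mesenchymal cells. Islr was at 12.6 FPKM in saline against 14.4 in cocaine after 2 h (log2 0.19), 15.0 against 12.3 after 24 h (log2 -0.28) and 13.98 against 15.3 after 7 d (log2 0.13).

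The proteoglycan list holds 13 genes, of which 7 had a mean of at least 1 FPKM, and 3 of these 7 were Dcn, Bgn and Ogn themselves. Of the 7, 7 were higher in cocaine at 2 h, 6 were lower at 24 h and 5 were higher at 7 d, against 56.5%, 46.9% and 47.8% of all loci. The medians were 0.36, -0.27 and 0.16, the last 2 being the values of Dcn and Bgn, and 0 were past 1.5-fold at any time. Among the 7, the lowest ratio at 24 h was that of Omd (osteomodulin, log2 -0.45), and the highest at 7 d that of Prelp (log2 0.41). Podn, under the limit, was at log2 -0.56 at 24 h. Of the list of 12 fibrillar collagens and other matrix genes, 6 of 6 above the limit were higher at 2 h, 5 of 7 were lower at 24 h and 7 of 7 were higher at 7 d, with medians of 0.20, -0.05 and 0.32. Of the genes under the limit at 2 h, Col6a3 (log2 -0.66), Col3a1 (log2 -0.54) and Col5a2 (log2 -0.02) were lower, while Col5a1, Lox and Fbn1 were higher. Collagen alpha-1(I), Col1a1, had the lowest ratio at 2 h of the genes above the limit. It was at 1.69 FPKM in saline against 1.86 in cocaine after 2 h, and at 1.75 against 2.54 after 7 d.

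The growth factor Igf2 and the binding protein Igfbp2 were the most abundant members after Ptgds. Insulin-like growth factor 2 is released by the meninges and the choroid plexus, and IGF-binding protein 2 holds insulin-like growth factors in the cerebrospinal fluid. Igf2 was at 38.1 FPKM in saline against 45.0 in cocaine after 2 h (log2 0.24), 45.2 against 39.3 after 24 h (log2 -0.20) and 34.6 against 43.4 after 7 d (log2 0.33). Igfbp2 was at 55.4 FPKM in saline against 60.7 in cocaine after 2 h (log2 0.13), 62.5 against 58.6 after 24 h (log2 -0.09) and 53.3 against 57.8 after 7 d (log2 0.12). Igfbp2 had the narrowest range of the 9, its highest level being 1.17 times its lowest. Igf2 (chr7:142650768-142666816) overlaps the opposite-strand RNA Igf2os (0.0426 to 0.112 FPKM), from which its reads cannot be told apart without strand.

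In the list of 13 genes of the insulin-like growth factor axis, 11 were above the limit of 1 FPKM. Of these, 10 were higher in cocaine at 2 h, 6 were lower at 24 h and 8 were higher at 7 d, with medians of 0.13, -0.01 and 0.21; 0 were past 1.5-fold. Igf1r, the receptor, had the highest ratio at 2 h (log2 0.28), and Igf2 itself had the highest at 7 d. Igfbp4 had the lowest ratio of the 11 at 24 h (log2 -0.25).

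Ptgds, which encodes the prostaglandin D2 synthase of the brain, was by far the most abundant member. It stood at 1828 FPKM in saline against 2096 in cocaine after 2 h, 2030 against 1772 after 24 h and 1941 against 1983 after 7 d. Its log2 ratios were 0.20, -0.20 and 0.03, so that cocaine and saline were nearly level at 7 d. In the list of 15 prostaglandin genes, 7 of 10 above the limit were higher at 2 h, 7 of 11 were lower at 24 h and 5 of 10 were higher at 7 d, with medians of 0.11, -0.08 and 0.00. Among the genes above the limit, the highest at 2 h and the lowest at 24 h was Ptges, a prostaglandin E synthase, at log2 0.43 and -0.42. Under the limit, Ptgfr (log2 -0.91) and Ptgdr (log2 -0.47) were lower still at 24 h. Ptger3, a receptor of prostaglandin E2, was the lowest at 2 h and at 7 d (log2 -0.50 and -0.45).

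Slc6a13 and Aldh1a2, the transporter and the enzyme of the set, had their larger differences at 7 d. Slc6a13 encodes GAT2, which takes up GABA and taurine. It was at 7.60 FPKM in saline against 8.10 in cocaine after 2 h (log2 0.09), 10.9 against 9.43 after 24 h (log2 -0.21) and 9.02 against 11.5 after 7 d (log2 0.35, the largest of the 9 at that time). The lowest of the 6 levels was saline at 2 h and the highest cocaine at 7 d, 1.51 times apart. Of the list of 6 transporters of GABA, taurine, betaine and creatine, Slc6a13 included, all 6 were above the limit and higher in cocaine at 7 d (median 0.30), and the medians at 2 h and 24 h were 0.09 and -0.07 over 5 genes. Slc6a11, the astrocytic GABA transporter GAT3, was at log2 0.16, -0.07 and 0.32.

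Aldh1a2 encodes the enzyme that turns retinaldehyde into retinoic acid in the meninges. It was at 7.23 FPKM in saline against 7.85 in cocaine after 2 h (log2 0.12), 9.16 against 7.62 after 24 h (log2 -0.26) and 7.05 against 8.66 after 7 d (log2 0.29). In the list of 15 retinoid genes, 11 of 13 above the limit were higher at 2 h, 9 of 13 were lower at 24 h and 6 of 13 were higher at 7 d. The shares of all loci were 56.5%, 46.9% and 47.8%, and the list medians were 0.13, -0.09 and -0.01. Of the 13, only the receptor gene Rara was past 1.5-fold at 2 h, with 1.66 FPKM in saline against 3.61 in cocaine (log2 1.07). Only Aldh1a3 was past it at 24 h, with 1.68 against 0.960 (log2 -0.75). Of all loci, 4.08% were past 1.5-fold at 2 h and 3.32% at 24 h. In the list of 12 genes of thyroid hormone carriage and action, Ttr was the only 1 of the 10 genes above the limit that was past 1.5-fold at any time; the medians of the 10 were 0.11, -0.05 and 0.00.

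The saline groups themselves differed between the 3 tables, which were normalised separately. The 24 h saline group was the highest of the 3 saline groups for 8 of the 9 genes (all but Dcn), and for Igf2, Igfbp2, Aldh1a2 and Bgn it was the highest of all 6 groups. The 24 h cocaine group was the lowest of the 3 cocaine groups for 6 of the 9. In saline the median over the 9 of the log2 level at 2 h less that at 24 h was -0.26 (0 of the 9 higher at 2 h), and in cocaine it was 0.14 (8 of the 9 higher). Over all 13593 genes the corresponding medians were -0.02 and -0.01. For 5 of the 9 (Igf2, Igfbp2, Slc6a13, Aldh1a2 and Bgn) no difference between cocaine and saline exceeded the range over the 3 saline groups on the log2 scale, and for Dcn, Ptgds, Islr and Ogn at least 1 difference did.

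The order of abundance was Ptgds, Igfbp2 and Igf2 in all 6 groups, followed by Islr at 12.3 to 15.3 FPKM. Bgn (9.39 to 13.1), Dcn (9.84 to 11.97), Ogn (7.86 to 10.7) and Slc6a13 (7.60 to 11.5) overlapped and changed places between groups. Aldh1a2 followed at 7.05 to 9.16, and Ttr was last in every group.

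The label of the 9 as meningeal was set against 34 other meningeal markers, of which 33 were found and 28 had a mean of at least 1 FPKM. In cocaine, 21 of the 28 were higher at 2 h, 21 were lower at 24 h and 25 were higher at 7 d, with medians of 0.15, -0.19 and 0.23. Of the 28, only Osr1, a transcription factor of fibroblasts, was past 1.5-fold, at 2 h, where 2.4% of all loci were past it in that direction. Osr1 was at 0.979 FPKM in saline against 1.70 in cocaine after 2 h (log2 0.74), and at 1.83 against 1.19 after 24 h (log2 -0.58, just short of 1.5-fold). The summed level of the 33 was 247 FPKM in saline against 285 in cocaine after 2 h, 279 against 265 after 24 h, and 258 against 282 after 7 d. Among the 28, Foxd1 had the highest ratio at 24 h (log2 0.17) and Slc47a1 the lowest at 2 h (log2 -0.22). Among the same 28, Fbln1 had the highest ratio at 7 d (log2 0.52) and Efemp1 the lowest (log2 -0.11). Markers under the limit went further, Bmp5 with log2 -0.75, 0.37 and 1.29 at the successive times and Ngfr with -0.30, 0.30 and -0.32. Bmp5 was thus on the side of Ttr at the first and last times, and Ngfr at the first only.

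Markers of some other cells lay on the same sides as the 9 genes, and their part in the result was not tested. In bulk tissue, more cells of a type and more RNA per cell cannot be told apart. Of 9 astrocyte markers, 9 were higher in cocaine at 2 h, 9 were lower at 24 h and 8 were higher at 7 d, with medians of 0.16, -0.15 and 0.28. Of 12 endothelial markers, 10 were higher at 2 h, 9 were lower at 24 h and 10 were higher at 7 d, with medians of 0.13, -0.07 and 0.14. The 10 mural cell markers above the limit had medians of 0.11, -0.07 and 0.25. The 5 red blood cell genes found were higher at 2 h (median 0.64, 4 of the 5 past 1.5-fold, against 2.4% of all loci) and at 7 d (0.25), and had a median of 0.08 at 24 h; Hbb-bt, a beta-globin gene, was at 40.4 FPKM in saline against 66.8 in cocaine after 2 h. Oligodendrocyte markers, which share Ptgds, had medians of -0.04, -0.21 and 0.02, and all 12 were lower at 24 h. The 9 microglial markers had medians of 0.04, -0.05 and -0.06, and 6 of the 9 were lower at 7 d. The medians of the 10 cortical neuron markers stayed near 0, at 0.03, 0.02 and 0.05, though single markers lay further out. At 7 d the lowest was Neurod6 (log2 -0.41) and the highest Camk2a (log2 0.24).

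**Figure D4:**
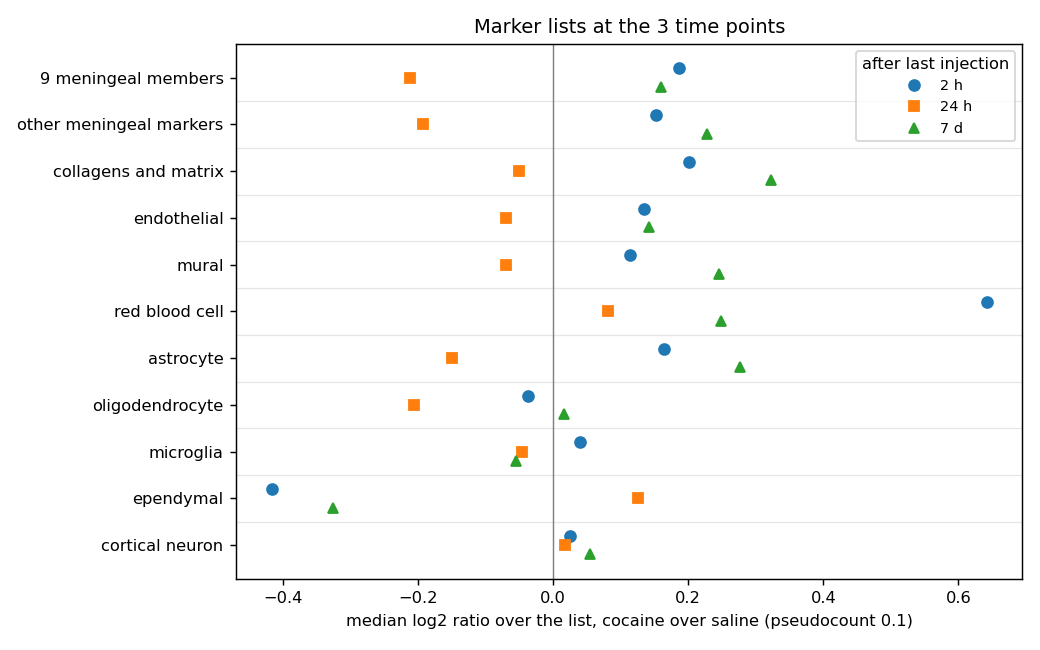
Median log2 ratio of cocaine over saline (horizontal axis, 0.1 FPKM added) of 11 gene lists (rows), counting genes above the limit of 1 FPKM, at 2 h (circles), 24 h (squares) and 7 d (triangles). The 9 meningeal members (0.19, -0.21 and 0.16), the other meningeal markers and the astrocyte markers lie right, left and right of 0, while the cortical neuron markers lie at 0.03, 0.02 and 0.05.

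Few genes resembled Ttr. Among 13786 genes that stand alone on a locus and have a mean of at least 0.5 FPKM in every table, 26 others were at least 1.5-fold lower in cocaine at 2 h and at least 1.5-fold higher at 7 d. By the smaller of their log2 ratios, 5 ranked ahead of Ttr, with Gm24722 first, and all 5 are small nuclear RNA genes in RefSeq and were listed at 0 in at least 1 group; 12 of the 26 were listed at 0 somewhere. The genes among the 26 that RefSeq lists as protein-coding under the same symbol were Bmp5 and Rbm38, which are named here after their values were seen. A gene whose symbol has no RefSeq match, such as Gm27286, was not classed. Bmp5, a bone morphogenetic protein on the list of meningeal markers, was at 0.812 FPKM in saline against 0.442 in cocaine after 2 h, and at 0.436 against 1.21 after 7 d. Rbm38 was at 1.23 FPKM in saline against 0.631 in cocaine after 2 h, and at 0.574 against 1.007 after 7 d.

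More genes had ratios like those of the 9. The genes closest to their 3 medians, by the Euclidean distance over the 3 log2 ratios among 12471 genes, were Snx9 (distance 0.02), Daam2, Abhd4, Flna and Msn (each 0.03 to 0.04). The farthest of the 9 lay 0.25 away, and 13% of the genes considered lay no farther than that.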

How the data were processed

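Total RNA of the prefrontal cortex was sequenced as poly(A)-selected, paired-end libraries on a HiSeq2000. After trimming, the authors used TopHat2 (2.0.12) for alignment, retained reads that mapped uniquely, and ran Cufflinks (2.2.1) and Cuffdiff. Versions are those of the submitters' processing notes. Each of the 3 deposited tables covers a time point and holds FPKM values that the authors pooled over the 2 libraries of each group. They also hold fold changes, test statistics, p and q values of the authors' own comparison, which were not used. The table headers call the groups C_2H and 2H and so on, which is ambiguous because the sample labels write C for cocaine and CC for control. The first was taken as saline because the study's supplementary tables for all 3 time points list its values under saline. With the opposite reading every ratio would change sign. The methods name mm9, but the loci match GRCm38 gene positions, and coordinates are 1-based on GRCm38.

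From the FPKM values, log2((cocaine + 0.1)/(saline + 0.1)) was computed in Python 3.11.15 with pandas 2.3.3 and numpy 2.4.6 and plotted with matplotlib 3.10.9; the counting step was checked on simulated data. A gene on several loci took its longest locus. There is no spread between libraries, so no test was run. Genes named were the 10 members, the highest and lowest gene of each list, 6 choroid plexus markers and the genes most like the members; others were named after their values were seen. The members and lists were chosen with earlier results of these data known. Alternatives were pseudocounts of 0 and 1, other folds, centring on the median locus, other locus choices, other FPKM limits and the meningeal genes without Igf2, Igfbp2 and Ptgds, which the choroid plexus also expresses.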

Additional observations from a re-analysis of the deposited data

Results flagged for a closer look

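The log2 ratio of Ttr at 7 d less that at 2 h was 5.95, because cocaine was lower at 2 h (log2 -1.83) and higher at 7 d (log2 4.11). This drew attention as a ratio past 1.5-fold in opposite directions at different time points. The difference was not tested, since each value is pooled over its libraries.

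All 9 meningeal genes were higher in cocaine at 2 h and lower at 24 h. The median over the 9 of the log2 ratio at 2 h less that at 24 h was 0.39, from 0.22 for Igfbp2 to 0.74 for Ogn. This drew attention because every member lay on opposite sides of 0 at the 2 time points, and the difference was not tested.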

How the results depend on the processing

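No paired analysis was possible because the values are pooled over the libraries of a group, and for the same reason no library could be left out. Of 93 values recomputed under the alternatives, 73 stayed within 1.5 times the reported value (counts over fewer genes were compared as shares), 20 moved further and 0 changed sign. The other locus choices could not move a value, because each member stood on 1 locus. Counts and shares cannot be negative, so only the log2 ratios could have changed sign. Without Igf2, Igfbp2 and Ptgds, 0, 6 and 5 of the remaining 6 genes lay on the side of Ttr at the successive times, with medians of 0.15, -0.27 and 0.17. With a pseudocount of 1, Ttr had log2 ratios of -0.99 (2 h), -0.42 (24 h) and 2.56 (7 d), and 0 members were past 1.5-fold at 24 h. With the larger level at least 25% above the smaller, 3 members passed at 2 h, 2 passed at 24 h and 3 passed at 7 d. With 2-fold, 0 passed at 24 h. The share of all loci past the limit was 12.5%, 8.23% and 13.2% at the 25% limit and 1.83%, 1.92% and 2.14% at 2-fold. It was 7.65%, 6.65% and 6.81% with no filter on low values, 2.64% and 2.11% for the first 2 times where loci under a mean of 5 FPKM were left out, and 2.61% at 2 h with a pseudocount of 1. The low level of Ttr limits the precision of its ratios, and the number of reads behind its values is unknown from the tables.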

Other observations

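Ependymal cells line the ventricles beside the choroid plexus, and their markers above the limit did not follow the meningeal genes. Of the 8 markers, 3 had a mean of at least 1 FPKM, and these 3 were lower in cocaine at 2 h (median log2 -0.42), higher at 24 h (0.12) and lower at 7 d (-0.33). Enkur was the lowest at 2 h (log2 -0.55) and Rarres2 the lowest at 7 d (log2 -0.34). Of the markers under the limit, Foxj1 (log2 0.24, -0.54 and 0.16) and Hydin (0.03, -0.17 and 0.02) lay on the sides of the meningeal genes. Ccdc153 and Ak7 did not do so at every time, and Tmem212 was listed at 0. Of the striatal markers, the 7 above the limit had medians of 0.17, 0.02 and 0.09, with Adora2a higher (log2 0.68) and Tac1 lower (log2 -0.62) at 7 d. The 2 olfactory bulb markers above the limit, Doc2g and Nmb, had medians of 0.00, 0.15 and -0.16.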
